A study of Homo sapiens with 6 samples.

Results

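HT-1080 cells, an established human fibrosarcoma line, were treated for 48 h with 2 µM palbociclib or with 500 nM pimasertib, and the RNA of the palbociclib libraries was compared directly with that of the pimasertib libraries. These were 4 of the 6 libraries of the study, taken by their labels: 2 of palbociclib and 2 of pimasertib. The other 2 libraries, from cells given the vehicle DMSO, are described beside them. Read counts per gene were measured by RNA sequencing. Palbociclib inhibits the cyclin-dependent kinases CDK4 and CDK6. Pimasertib inhibits the kinases MEK1 and MEK2. The drugs are not structural relatives, and each was used at 1 dose and 1 time, so their potency was not compared. The replicates carry numbers, but no label says that each was its own culture. A p-value here therefore reflects how far these particular libraries scatter, and that scatter may be technical. In bulk RNA, fewer cells of a state and less RNA per cell cannot be told apart.

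Both kinases lie on the route by which growth signals start the cell cycle. RAS activates RAF, RAF activates MEK and MEK activates ERK, which drives transcription of cyclin D1 and of its own feedback inhibitors, among them the dual-specificity phosphatases and the Sprouty and SPRED proteins. Cyclin D then activates CDK4 and CDK6, which phosphorylate the retinoblastoma protein RB and release the E2F factors that transcribe genes of DNA replication. A CDK4 and CDK6 inhibitor thus acts late on this route and a MEK inhibitor acts upstream of it, and HT-1080 cells are known to carry an activating mutation of NRAS.

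Library totals ranged from 13607490 to 17500655 counts, and a count of 3 in a single library corresponded to 0.168 to 0.220 CPM (read counts scaled to a common library size, with a correction for composition). Mitochondrial genes took 3.21% to 5.67% of counts in DMSO, 4.57% to 6.31% in palbociclib and 4.25% to 8.76% in pimasertib, with the higher value in replicate 2 of each group. Of 15 fibroblast and mesenchymal markers 3 stayed under 1 CPM in every library (FAP, THY1 and PRRX1, where a marker with no row in the tables analysed, such as PRRX1, counts as 0 here and in the lists that follow). Their summed level was 3581 to 5108 CPM in DMSO, 5434 to 7552 in palbociclib and 11334 to 14944 in pimasertib, and 2 were higher in palbociclib and 5 in pimasertib by the test below. Most of the pimasertib sum was SPARC, a matrix protein, at 7200 and 10380 CPM. SPARC was at 1454 and 2427 CPM in palbociclib and 860 and 1710 CPM in DMSO. Vimentin (VIM), a defining filament protein of these cells, lay lower in both pimasertib libraries. It was at 1191 and 1040 CPM in palbociclib, 672 and 512 CPM in pimasertib and 999 and 988 CPM in DMSO. Of 15 epithelial markers 9 stayed under 1 CPM in every library, CDH1 and EPCAM among them, and the list summed to 312 to 352 CPM in DMSO, 379 to 468 in palbociclib and 397 to 628 in pimasertib. The keratins KRT8 (192 to 553 CPM) and KRT18 (57.4 to 148 CPM) carried most of that sum. Of 15 endothelial markers 8 stayed under 1 CPM, and the sum was 388 to 619, 567 to 743 and 361 to 497 CPM in the same order, mostly from TIE1 (130 to 341 CPM) and ENG (171 to 282 CPM). Of 15 leukocyte markers 11 stayed under 1 CPM, with sums of 12.1 to 19.5 CPM. By the same test 1 epithelial and 1 endothelial marker were higher in palbociclib and 0 in pimasertib, and 0 leukocyte markers were called. The part of these markers in the results was not tested. Palbociclib replicate 2 stood apart in a few genes chosen after their values were seen: KRT19 was at 9.19 CPM there and at most 0.403 elsewhere, S100A4 at 5.71 and at most 0.744 elsewhere, and KRT14 at 2.02 and 0 elsewhere. The part of these transcripts in the results was not tested, and each call is therefore described with the fits that leave out a library.

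Across all genes the drugs differed at 1393 of 14839 tested genes, 9.39% (edgeR quasi-likelihood test, Benjamini-Hochberg adjusted p under 0.05, 2 libraries per drug). Of these calls 640 were higher in palbociclib, 4.31% of tested genes, and 753 were higher in pimasertib, 5.07%. At least a 2-fold difference was fitted for 508 and 636 of them, and at least a 4-fold difference for 195 and 240. Over all tested genes the median log2 fold change of palbociclib over pimasertib was -0.02. A call is said to hold where it was made in the same direction in all 6 fits that each left out 1 library. By that measure 188 calls higher in palbociclib held, 1.27% of tested genes, and 187 higher in pimasertib, 1.26%. Of the fits that left out a library, those without a pimasertib library gave the fewest calls: 538 genes were called without pimasertib replicate 1 and 458 without replicate 2, of which 530 and 454 were among the 1393 in the same direction. It was 863 without palbociclib replicate 1 and 1934 without palbociclib replicate 2.

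**Figure D1:**
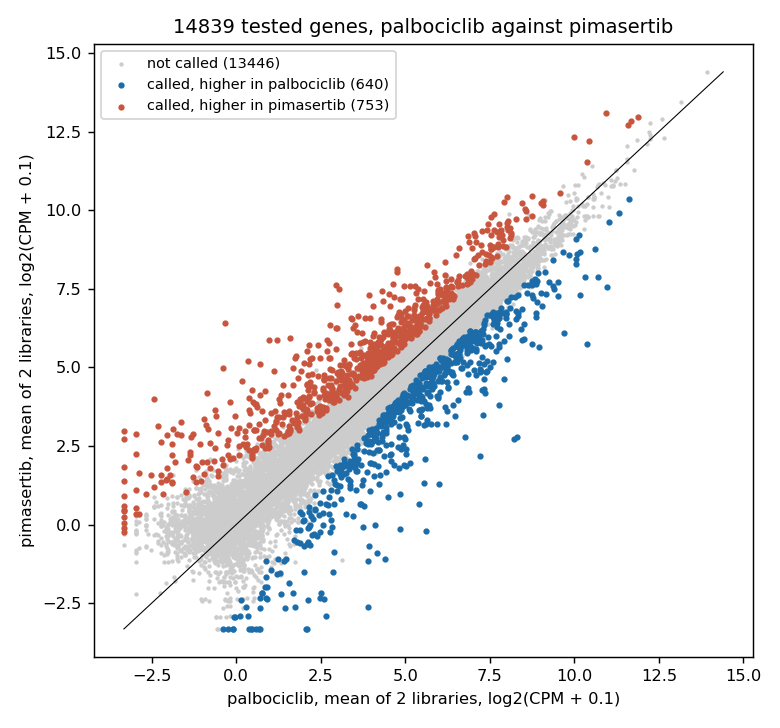
Mean CPM of each of the 14839 tested genes in palbociclib (horizontal axis) and pimasertib (vertical axis), both as log2(CPM + 0.1), with 1 point per gene and a line of equal level. The 640 called genes higher in palbociclib lie below the line, the 753 higher in pimasertib lie above it, and the 13446 other genes fill the space between.

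For the genes that told the drugs apart, the DMSO mean usually lay nearer to the palbociclib mean than to the pimasertib mean. On the scale of log2(mean CPM + 0.1), the DMSO mean was nearer to palbociclib at 576 of the 640 genes higher in palbociclib and at 661 of the 753 higher in pimasertib. Over all tested genes it was nearer to palbociclib at 66.0%. Among the calls that held, the numbers were 181 of 188 and 179 of 187. Nearer does not mean equal. The DMSO mean lay above both drug means at 267 of the 640 genes and below both at 424 of the 753. At those genes both drug means lay on the same side of DMSO. Over all 14839 tested genes the DMSO mean was above both at 5202 and below both at 5274. Each drug was also tested against the same DMSO libraries, so these comparisons share their controls. Palbociclib raised 164 genes (1.11%) and lowered 362 (2.44%), and pimasertib raised 1644 (11.1%) and lowered 1732 (11.7%). The first principal component, with 57.4% of the variance of log2 CPM, ran from -69.5 and -32.5 in DMSO and -43.4 and -0.79 in palbociclib to 63.9 and 82.3 in pimasertib. Thus along this axis the palbociclib and DMSO libraries overlapped and the pimasertib libraries lay beyond both. The second component, with 18.4% of the variance, set DMSO (32.0 and 35.0) apart from palbociclib (-54.3 and -23.8). Pimasertib lay between them there, at -3.07 and 14.3.

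The plot of gene lists shows where the difference sat. ERK output genes lay at one end, at a median of 1.91 on the log2 scale, and complement and contractile genes at the other, at -2.03 and -1.08. DNA replication genes had a median of -0.03.

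**Figure D2:**
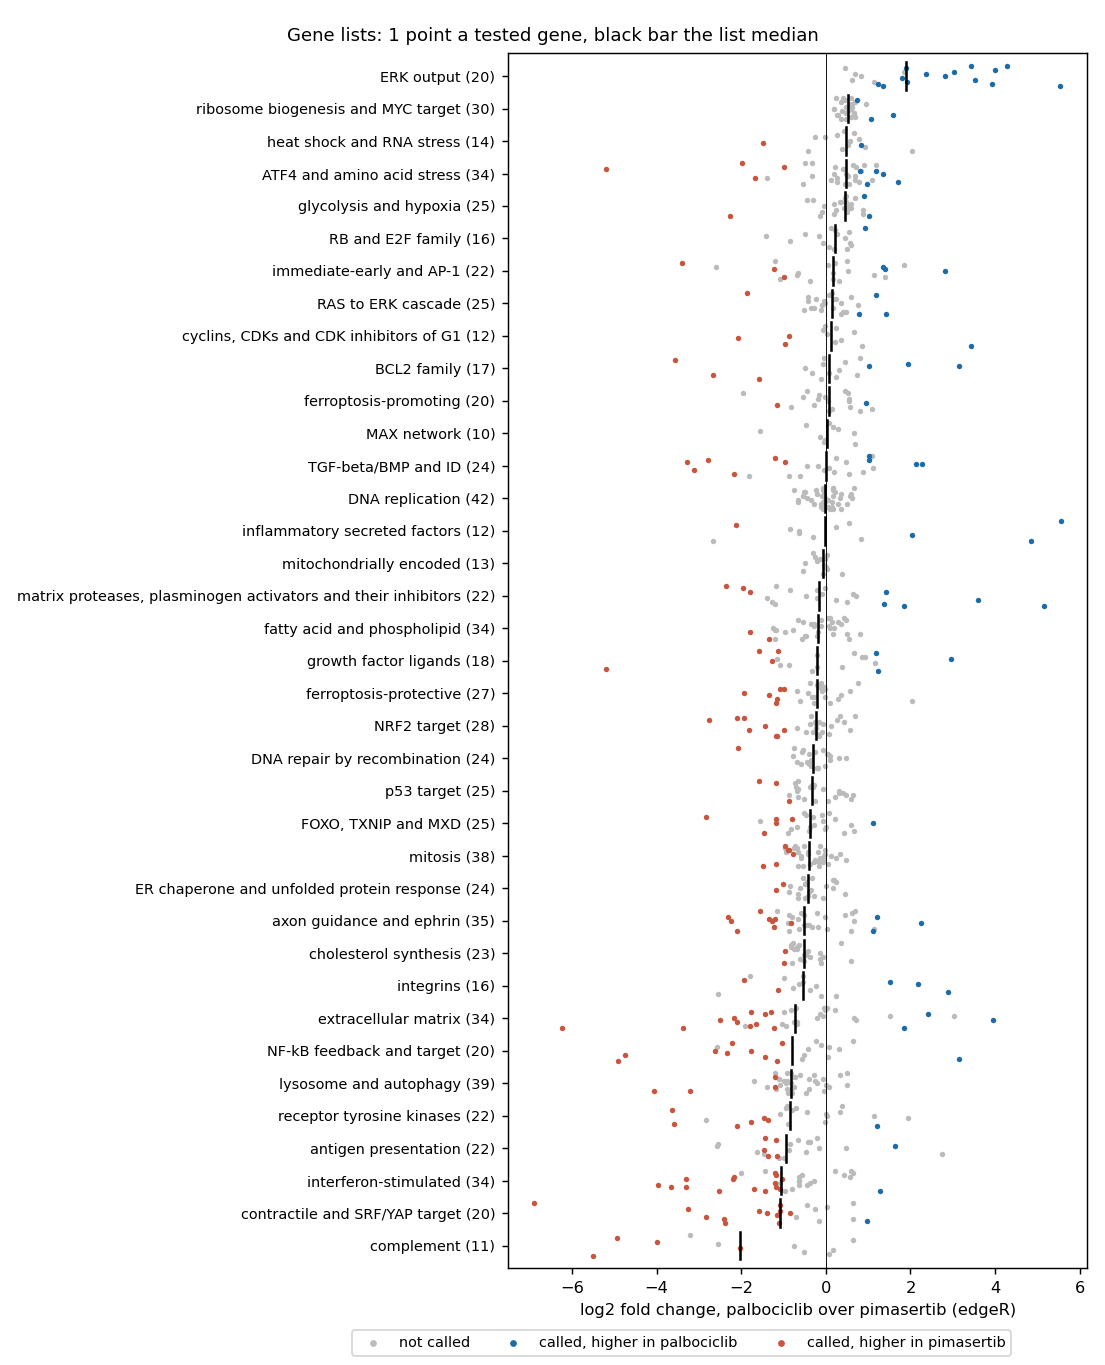
Log2 fold change of palbociclib over pimasertib (horizontal axis) for every tested gene of each list, with 1 point per gene, the number of tested genes in brackets and a black bar at the list median. Blue points are called higher in palbociclib, red points higher in pimasertib and grey points are not called. All 20 ERK output genes lie to the right of 0, and no DNA replication gene is coloured.

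ERK output genes were the clearest group higher in palbociclib. Of 20 tested genes 14 were called higher in palbociclib and 0 higher in pimasertib, and 12 calls held. Between 12 and 16 were called in the fits that left out a library. Against DMSO, pimasertib lowered 15 of the 20 and raised 0, and the median difference was -2.12 on the log2 scale. Palbociclib lowered 1 and raised 0, with a median of 0.02.

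The feedback inhibitors of the pathway led this group. SPRY4, a Sprouty protein that blocks receptor signalling to RAS (chromosome 5, 141689992 to 141706020, minus strand, GRCh37), was at 47.9 and 45.3 CPM in palbociclib and at 2.07 and 2.72 CPM in pimasertib. DMSO stood at 68.7 and 50.9 CPM. The drugs differed by a log2 fold change of 4.28 ± 0.27 (SE, edgeR adjusted p = 1.59e-05). The pimasertib libraries lay far below the other 4, and palbociclib lay slightly below DMSO. Its relative SPRY2 was at 46.1 and 50.5 CPM in palbociclib and 4.09 and 4.27 CPM in pimasertib (log2 fold change 3.53 ± 0.22, edgeR adjusted p = 1.59e-05). The SPRED proteins, which hold RAF inactive, were separated less widely. SPRED1 was at 155 and 142 CPM against 32.3 and 25.3 CPM, a log2 fold change of 2.37 ± 0.22. SPRED2 differed by 1.92 ± 0.21 and SPRED3 by 1.90 ± 0.24 on the log2 scale.

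The phosphatases were also lower in pimasertib than in both other groups. DUSP4, which dephosphorylates ERK in the nucleus, was at 317 and 277 CPM in palbociclib, 8.18 and 4.66 CPM in pimasertib and 210 and 223 CPM in DMSO. Its log2 fold change was 5.52 ± 0.32 (edgeR adjusted p = 1.42e-05), the largest of the list. DUSP5, another nuclear ERK phosphatase (chromosome 10, 112257596 to 112271302, plus strand, GRCh37), was at 96.9 and 79.2 CPM against 11.7 and 9.90 CPM, a log2 fold change of 3.03 ± 0.23. DUSP6, the cytoplasmic ERK phosphatase, was below the filter on low counts and was not tested: it had 5 and 5 counts in palbociclib, 0 and 0 in pimasertib and 0 and 7 in DMSO.

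The ETS factors of the PEA3 group, transcription factors switched on by ERK, were also lower in pimasertib. ETV5 was at 130 and 86.3 CPM in palbociclib and at 6.86 and 6.73 CPM in pimasertib, a log2 fold change of 3.99 ± 0.26 (edgeR adjusted p = 2.45e-05). ETV4 was at 30.4 and 26.7 CPM against 2.36 and 1.36 CPM, a log2 fold change of 3.92 ± 0.29. ETV1 differed by 2.81 ± 0.25. In DMSO, ETV4 stood at 53.8 and 48.2 CPM, above both palbociclib libraries, and the log2 fold change of palbociclib over DMSO, -0.84, did not pass the test (edgeR adjusted p = 0.091). PHLDA1, a gene induced by growth factors, was at 430 and 516 CPM in palbociclib and 150 and 121 CPM in pimasertib (log2 fold change 1.80 ± 0.24).

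**Figure D3:**
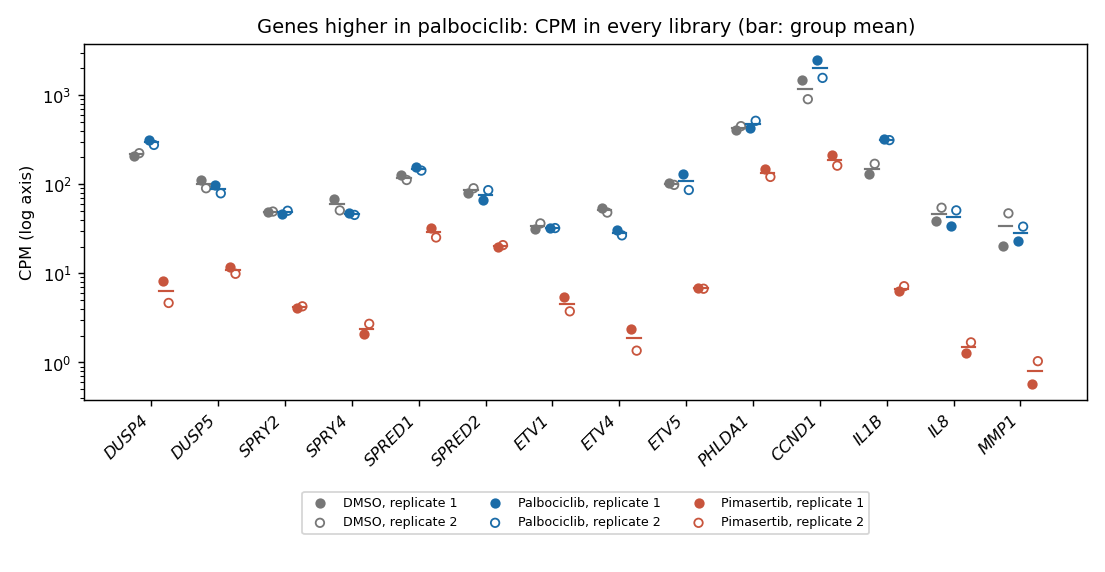
CPM on a log axis in every library for 14 genes higher in palbociclib, with filled circles for replicate 1, open circles for replicate 2 and bars at the group means. For SPRY2 and DUSP4 the pimasertib libraries lie more than 10-fold below those of palbociclib, while DMSO lies beside palbociclib.

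Cyclin D1 belonged both to the list of ERK output genes and to that of G1 regulators. CCND1, which activates the kinases that palbociclib inhibits (chromosome 11, 69455855 to 69469242, plus strand, GRCh37), was at 2472 and 1564 CPM in palbociclib, 215 and 162 CPM in pimasertib and 1469 and 901 CPM in DMSO. The drugs differed 10.7-fold in mean CPM, with a log2 fold change of 3.42 ± 0.35 (edgeR adjusted p = 0.000252), and the call held. Both palbociclib libraries lay above both DMSO libraries, but that difference of 0.77 on the log2 scale did not pass the test (edgeR adjusted p = 0.25). FOSL1, an AP-1 subunit that ERK stabilizes, differed from the genes above in that both drugs lowered it. It was at 150 and 129 CPM in palbociclib, 57.1 and 51.6 CPM in pimasertib and 408 and 275 CPM in DMSO. The drugs differed by 1.36 ± 0.25 on the log2 scale (edgeR adjusted p = 0.0069), a call that was lost without pimasertib replicate 1 (adjusted p = 0.0697) and without replicate 2 (adjusted p = 0.103).

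Other immediate-early and AP-1 genes went both ways. Of 22 tested genes 3 were called higher in palbociclib and 3 higher in pimasertib, at a median of 0.18. The 3 higher in pimasertib became 1 without either pimasertib replicate and 5 without palbociclib replicate 2. MAFF, a small MAF factor, was at 20.8 and 22 CPM in palbociclib and 2.94 and 3.17 CPM in pimasertib (log2 fold change 2.81 ± 0.24). KLF2, a zinc finger factor, was higher in palbociclib by 1.39 ± 0.21. ATF3, a stress-induced factor of the ATF family, went the other way, at 1.98 and 0.784 CPM in palbociclib and 14.6 and 13.9 CPM in pimasertib, a log2 fold change of -3.39 ± 0.42 (edgeR adjusted p = 0.000655). It lay between the drugs in DMSO, at 3.83 and 3.38 CPM, and the log2 fold change was -4.17 without palbociclib replicate 1.

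Most genes of the cascade itself, its kinases, RAS proteins and their regulators, differed by less than 2-fold. Of 25 tested genes from RAS to ERK 3 were called higher in palbociclib and 1 in pimasertib, and none of these calls held. Over all tested genes the shares called were 4.31% and 5.07%. For 18 of the 25 the 95% interval of the difference lay within 1 log2 unit either way, against 43.4% of all tested genes. MAP2K1, which encodes MEK1, was at 105 and 87.8 CPM in palbociclib and 46.2 and 38.4 CPM in pimasertib. The difference of 1.19 ± 0.22 on the log2 scale (edgeR adjusted p = 0.00676) was not called without pimasertib replicate 2 (adjusted p = 0.0933). MAP2K2 and MAPK3, which encode MEK2 and ERK1, had log2 fold changes of 0.36 and -0.43 that did not pass the test. NRAS had one of -0.27 ± 0.26. MRAS, a RAS relative, was at 4.4 and 3.92 CPM in palbociclib and 16.7 and 13.8 CPM in pimasertib (-1.87 ± 0.32), a call lost without pimasertib replicate 1 (adjusted p = 0.0636).

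DNA replication genes were lowered by both drugs, and most by similar amounts. None of 42 tested genes was called between the drugs by edgeR, DESeq2 or limma-voom. At an unadjusted p under 0.05, 3 were higher in palbociclib and 4 in pimasertib, and 1 was called higher in pimasertib without DMSO replicate 1 or replicate 2. The median log2 fold change was -0.03, the range was -0.75 to 0.66, and for 31 of the 42 the 95% interval lay within 1 log2 unit either way. For all tested genes that share was 43.4%. Against the shared DMSO libraries palbociclib lowered 36 and pimasertib 41, with median log2 fold changes of -1.48 and -1.53. The DMSO mean was above both drug means for all 42 genes, against 5202 of the 14839 tested genes. MCM2, a subunit of the replicative helicase, was at 84.3 and 78.4 CPM in palbociclib, 95.5 and 75.6 CPM in pimasertib and 401 and 288 CPM in DMSO. RRM2, the small subunit of ribonucleotide reductase, was at 81.5 and 57.3, 66.4 and 52.4, and 374 and 246 CPM in the same order. For both genes the drug libraries overlapped far below DMSO.

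Mitosis genes were lowered by both drugs too, and palbociclib lay somewhat lower. Of 38 tested genes 36 were lowered by each drug against DMSO, with median log2 fold changes of -1.62 in palbociclib and -1.24 in pimasertib. Between the drugs 6 were called higher in pimasertib and 0 higher in palbociclib, and the median difference was -0.39. The 6 calls fell to 2 without palbociclib replicate 1, to 1 without pimasertib replicate 1 and to 2 without pimasertib replicate 2. KIF20A, a kinesin of cytokinesis, was the call that held. It was at 18.1 and 19.3 CPM in palbociclib, 44.9 and 40.2 CPM in pimasertib and 70.5 and 63.2 CPM in DMSO, and the drugs differed by -1.18 ± 0.20 (edgeR adjusted p = 0.00404). CCNA2, the S and G2 phase cyclin A, was at 31.1 and 23.5 CPM against 90.2 and 63.3 CPM, a log2 fold change of -1.49 ± 0.25 (edgeR adjusted p = 0.00386) that was lost without pimasertib replicate 1 (adjusted p = 0.051). AURKB, a kinase of chromosome segregation, differed by -0.87 ± 0.20 and lost its call without palbociclib replicate 1 (adjusted p = 0.146) and without either pimasertib replicate (0.118 and 0.0836). MKI67, the gene of the proliferation antigen Ki-67, was at 195 and 141 CPM in palbociclib, 225 and 222 CPM in pimasertib and 1172 and 816 CPM in DMSO, with no call between the drugs (-0.41 ± 0.26, edgeR adjusted p = 0.365).

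**Figure D4:**
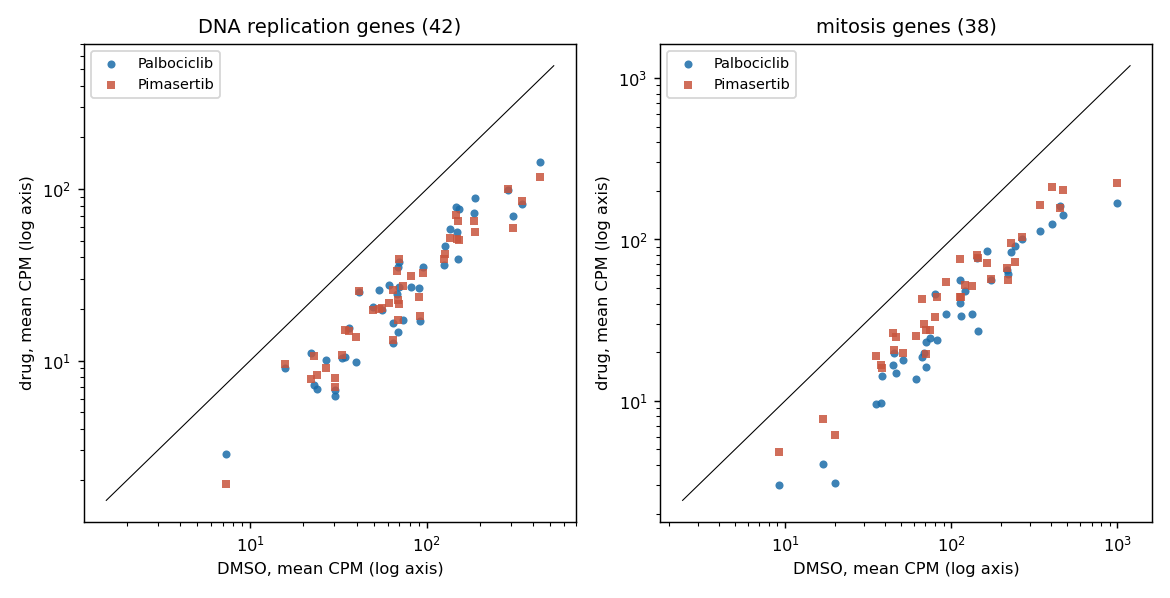
Mean CPM in DMSO (horizontal axis) and in each drug (vertical axis) for the 42 DNA replication genes and the 38 mitosis genes, both on log axes, with circles for palbociclib, squares for pimasertib and a line of equal level. All points lie below the line. Circles and squares mix in the replication panel, and the squares lie above the circles for most mitosis genes.

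Promoters of these genes are known for E2F sites and for the cell cycle homology region, and a pair of them is shown because both drugs lowered these lists together. RefSeq promoters (GRCh38.p14, 250 bases before to 50 after the first listed start) were matched for 38 of the 42 replication genes and 32 of the 38 mitosis genes. An E2F word, TTTNNCGC on either strand, stood in 22 of the 38 replication promoters (57.9%), against 6.90% of all 27305 promoters of the table and 10.7% of those of tested protein-coding genes. A cell cycle homology region word, TTTGAA on either strand, stood in 21 of the 32 mitosis promoters (65.6%), against 15.4% and 9.69%. Promoters of these lists were known for such sites beforehand, so higher shares came with the choice of lists. A word is a match of letters and shows no binding. MCM2 (chr3:127598161-127598430, plus strand) holds 2 overlapping E2F words on opposite strands, in capitals. KIF23, a kinesin of the spindle midzone (chr15:69414099-69414368, plus strand), holds the other word, in capitals. Each line runs 5′ to 3′ from 250 bases before the start to 20 after it.
MCM2: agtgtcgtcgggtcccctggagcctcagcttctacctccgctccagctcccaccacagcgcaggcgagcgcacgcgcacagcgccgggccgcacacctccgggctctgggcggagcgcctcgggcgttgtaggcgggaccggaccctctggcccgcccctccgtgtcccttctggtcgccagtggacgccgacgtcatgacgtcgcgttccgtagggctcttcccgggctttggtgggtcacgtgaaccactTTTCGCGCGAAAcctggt
KIF23: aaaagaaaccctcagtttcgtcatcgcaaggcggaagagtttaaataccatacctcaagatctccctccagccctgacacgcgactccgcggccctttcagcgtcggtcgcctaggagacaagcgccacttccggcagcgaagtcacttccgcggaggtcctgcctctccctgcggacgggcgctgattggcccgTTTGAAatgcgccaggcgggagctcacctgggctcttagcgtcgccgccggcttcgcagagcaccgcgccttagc

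KIF23 itself was at 18.2 and 29.3 CPM in palbociclib, 46.3 and 42.3 CPM in pimasertib and 84.0 and 80.3 CPM in DMSO. The difference of -0.90 ± 0.24 between the drugs (edgeR adjusted p = 0.0442) was lost without palbociclib replicate 1 (adjusted p = 0.362) and without either pimasertib replicate (0.184 and 0.173). All 4 drug libraries lay below DMSO.

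Among G1 regulators the drugs differed at CCND1, above, and at inhibitors of CDKs. Of 12 tested genes 1 was called higher in palbociclib and 3 higher in pimasertib. CDKN2C, the INK4 protein p18 that binds CDK4 and CDK6 (chromosome 1, 51426417 to 51440305, plus strand, GRCh37), was at 13.8 and 12.7 CPM in palbociclib and at 62.2 and 49.9 CPM in pimasertib. In DMSO it was at 53.2 and 43.4 CPM, so here the pimasertib libraries overlapped DMSO and palbociclib lay below. The log2 fold change was -2.08 ± 0.22 (edgeR adjusted p = 0.000282) and the call held. Unlike most genes that separated the drugs, its DMSO mean lay nearer to pimasertib. BRIP1, a helicase of DNA repair, had the same order. It was at 6.45 and 5.32 CPM in palbociclib, 28.0 and 21.8 CPM in pimasertib and 23.9 and 15.1 CPM in DMSO, with a log2 fold change of -2.08 ± 0.29.

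The CIP and KIP inhibitors differed by less. CDKN1B, p27, was at 19.6 and 27.3 CPM in palbociclib and 47.8 and 43.3 CPM in pimasertib, a log2 fold change of -0.96 ± 0.22 (edgeR adjusted p = 0.0221). CDKN1A, p21, was at 231 and 268 CPM against 479 and 426 CPM, a log2 fold change of -0.86 ± 0.22 (edgeR adjusted p = 0.0362). Neither call held: without palbociclib replicate 1 the adjusted p was 0.199 and 0.29, without pimasertib replicate 1 it was 0.13 and 0.177, and without pimasertib replicate 2 it was 0.103 and 0.138. CDKN1A was also not called without palbociclib replicate 2 (0.0648). E2F1, the activating E2F factor, was at 22.2 and 18.1 CPM in palbociclib, 11.2 and 9.96 CPM in pimasertib and 78.3 and 54.7 CPM in DMSO. It was higher in palbociclib by 0.92 ± 0.24 (edgeR adjusted p = 0.0392), and lost that call without palbociclib replicate 1 (0.19), pimasertib replicate 1 (0.137) or pimasertib replicate 2 (0.258).

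Of the other G1 genes named here, the targets of palbociclib, RB1 and the cyclins CCND3, CCNE1 and CCNE2 were not called. CDK4 had a log2 fold change of 0.22 with a 95% interval of -0.29 to 0.73, CDK6 0.23 (-0.42 to 0.88) and RB1 0.19 (-0.32 to 0.71). CCND3, a D cyclin, had one of 0.66 ± 0.21 (edgeR adjusted p = 0.0806), CCNE1 one of 0.36 ± 0.27 and CCNE2 one of -0.01 ± 0.35. MYC was at 25.5 and 33.4 CPM in palbociclib and 16.7 and 19.8 CPM in pimasertib, and its log2 fold change of 0.69 ± 0.23 did not pass the test (edgeR adjusted p = 0.0873).

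Secreted factors and proteases held some of the widest separations. IL1B, the inflammatory cytokine interleukin 1 beta (chromosome 2, 113587328 to 113594480, minus strand, GRCh37), was at 321 and 313 CPM in palbociclib, 6.28 and 7.18 CPM in pimasertib and 130 and 170 CPM in DMSO. The drugs differed 47.1-fold in mean CPM (log2 fold change 5.56 ± 0.27, edgeR adjusted p = 1.2e-05). Here all 3 groups were separate: palbociclib raised IL1B over DMSO (log2 fold change 1.08, edgeR adjusted p = 0.025) and pimasertib lowered it (-4.48, edgeR adjusted p = 8.8e-06). IL8, the neutrophil chemokine now named CXCL8, was at 34.4 and 51.0 CPM in palbociclib, 1.27 and 1.68 CPM in pimasertib and 39.0 and 54.6 CPM in DMSO, a log2 fold change of 4.86 ± 0.33 (edgeR adjusted p = 2.8e-05). Its palbociclib libraries overlapped DMSO. CSF1, the macrophage growth factor, went the other way, at 105 and 160 CPM in palbociclib and 480 and 673 CPM in pimasertib (-2.12 ± 0.31). Over the list of inflammatory secreted factors 3 of 12 were called higher in palbociclib and 1 in pimasertib, which became 2 without either DMSO replicate, and the median was -0.03.

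The CXCL8 promoter is shown because IL8 is known as a target of AP-1 and its level told the drugs apart. In RefSeq (GRCh38.p14, chr4:73740319-73740588, plus strand) it holds 1 AP-1 word, TGANTCA on either strand, in capitals. That word stood in 7.76% of all promoters of the table and in 4.74% of those of tested protein-coding genes. No other word was searched for display here, and the part of this word in the level of IL8 was not tested.
CXCL8: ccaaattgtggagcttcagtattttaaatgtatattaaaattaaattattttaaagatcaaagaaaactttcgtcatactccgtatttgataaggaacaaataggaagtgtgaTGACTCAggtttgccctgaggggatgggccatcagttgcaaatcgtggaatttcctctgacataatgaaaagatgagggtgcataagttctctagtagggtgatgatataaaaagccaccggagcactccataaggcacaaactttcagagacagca

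MMP1, the interstitial collagenase (chromosome 11, 102660651 to 102668891, minus strand, GRCh37), was at 23.4 and 33.5 CPM in palbociclib and at 0.576 and 1.03 CPM in pimasertib, with DMSO at 20.4 and 47.2 CPM (log2 fold change 5.15 ± 0.49, edgeR adjusted p = 0.000149). PLAT, the tissue plasminogen activator, was at 614 and 1045 CPM in palbociclib, 55.4 and 81.9 CPM in pimasertib and 156 and 384 CPM in DMSO (3.59 ± 0.45). PLAU, the urokinase, and its receptor PLAUR were higher in palbociclib by 1.85 ± 0.48 and 1.42 ± 0.36, but lost their calls without palbociclib replicate 2 (adjusted p = 0.14 and 0.0932) and without either pimasertib replicate. Of 22 tested proteases, plasminogen activators and inhibitors 5 were called higher in palbociclib and 3 in pimasertib. The 5 became 2 without palbociclib replicate 2 or either pimasertib replicate, and the 3 became 5 without palbociclib replicate 2 and 1 without either pimasertib replicate.

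The protein-coding genes furthest above pimasertib, among held calls with a mean of 100 or more normalized counts and libraries that did not overlap, were of several kinds. ESM1, a proteoglycan secreted by endothelial and tumour cells, was at 40.3 and 56.5 CPM in palbociclib and 0.807 and 0.712 CPM in pimasertib (5.98 ± 0.32, edgeR adjusted p = 1.2e-05). MYEOV, a gene near CCND1 on chromosome 11, was at 19.9 and 22 CPM against 0.403 and 0.323 CPM. PREX1, an activator of RAC, was at 161 and 135 CPM against 4.49 and 4.27 CPM. STC1, the secreted glycoprotein stanniocalcin 1, was the most abundant, at 1220 and 1420 CPM against 49.7 and 57.2 CPM (4.62 ± 0.29). Each of these 4 genes lay far above pimasertib in both palbociclib libraries, and in DMSO too. GPR116, an adhesion receptor, had 2 counts over both pimasertib libraries and 470 over both palbociclib libraries, a ratio of 245 with an exact 95% interval of 67.4 to 2028 for counting error only. The others of the leading 15 were ACOX2 and MGLL, enzymes of lipid breakdown, at log2 fold changes of 5.42 and 5.34, HSD11B1, which activates cortisol, at 4.84, SH3TC2 at 4.79 and COL17A1, a collagen of epithelial anchoring, at 4.22. ACOX2 was at 0.115 and 0.582 CPM in pimasertib, and its log2 fold change was 4.65 without pimasertib replicate 1 and 6.92 without replicate 2. COL17A1 was at 4.85 without pimasertib replicate 1. The largest differences of level were STC1, CCND1, HMGA1, a chromatin protein at 1878 and 1430 CPM against 245 and 224 CPM, the adhesion receptor CD44 at 1526 and 1601 against 416 and 461 CPM, the kinase MAP4K4 at 1423 and 1111 against 249 and 221 CPM, and ITGA6 at 1195 and 1114 against 144 and 168 CPM.

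Receptor tyrosine kinases leaned towards pimasertib. Of 22 tested receptors 6 were called higher in pimasertib, 5 of which held, and 1 higher in palbociclib, and the median log2 fold change was -0.84. Without either DMSO replicate these were 10 and 2, the second number was also 2 without palbociclib replicate 1, and it was 0 without pimasertib replicate 1. PDGFRB, a receptor of platelet-derived growth factor, was at 3.81 and 4.87 CPM in palbociclib, 49.7 and 56.0 CPM in pimasertib and 2.25 and 6.02 CPM in DMSO, a log2 fold change of -3.59 ± 0.38 (edgeR adjusted p = 0.000293). KIT, the receptor of stem cell factor, was at 0.953 and 0.784 CPM against 11.4 and 10.3 CPM (-3.64 ± 0.39). More abundant receptors differed by less. FGFR1 was at 62.6 and 61.2 CPM in palbociclib, 154 and 185 CPM in pimasertib and 83.2 and 109 CPM in DMSO (-1.45 ± 0.22). IGF1R, the receptor of insulin-like growth factor, differed by -1.36 ± 0.22 and ROR1, a WNT5A receptor, by -1.76 ± 0.25. EGFR was the exception, at 189 and 195 CPM in palbociclib, 72.4 and 94.7 CPM in pimasertib and 267 and 308 CPM in DMSO. Its log2 fold change of 1.2 ± 0.23 (edgeR adjusted p = 0.00817) was lost without pimasertib replicate 1 (adjusted p = 0.106).

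Growth factor ligands went both ways, with 3 of 18 called higher in palbociclib, 4 higher in pimasertib and a median of -0.21. The 3 became 5 without DMSO replicate 1 or DMSO replicate 2 and 1 without either pimasertib replicate, and the 4 became 2 without pimasertib replicate 2. FGF1 was at 16.2 and 14.9 CPM in palbociclib and 2.88 and 1.10 CPM in pimasertib, a log2 fold change of 2.95 ± 0.42 that was 3.81 without pimasertib replicate 1. NRG1, a ligand of ERBB3 and ERBB4, was at 28.7 and 32.3 CPM in palbociclib, 87.2 and 96.2 CPM in pimasertib and 58.6 and 70.1 CPM in DMSO (-1.59 ± 0.21). Palbociclib lay below DMSO there (log2 fold change -1.07, edgeR adjusted p = 0.017).

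Contractile genes were among the groups furthest towards pimasertib. Of 20 tested contractile and SRF or YAP target genes 12 were called higher in pimasertib and 1 higher in palbociclib, with a median of -1.08, and 4 held. The 12 became 7 without palbociclib replicate 1, 4 without pimasertib replicate 1 and 7 without pimasertib replicate 2, and the 1 became 0 in the same fits. Against DMSO pimasertib raised 12 and palbociclib 1. TAGLN, the actin-binding protein transgelin (chromosome 11, 117070037 to 117075498, plus strand, GRCh37), was at 5.28 and 10.4 CPM in palbociclib, 91.5 and 59.4 CPM in pimasertib and 2.13 and 3.85 CPM in DMSO, a log2 fold change of -3.26 ± 0.37 (edgeR adjusted p = 0.000442). MYL9, a myosin light chain, was at 21.6 and 23.7, 185 and 136, and 6.50 and 7.24 CPM in the same order (-2.83 ± 0.23). The 3 groups of MYL9 were separate, and palbociclib raised it over DMSO as well (log2 fold change 1.72, edgeR adjusted p = 0.0031). TPM1, a tropomyosin of actin filaments, was at 263 and 255 CPM in palbociclib, 1343 and 1417 CPM in pimasertib and 140 and 145 CPM in DMSO (-2.41 ± 0.23). ACTA2, smooth muscle actin, differed by -2.38 ± 0.34.

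SRF binds CArG boxes, and promoters of this list are searched for them for that reason. RefSeq promoters matched 16 of the 20 genes. A CArG box stood in 4 of them (25.0%: MYLK, SRF, CNN2 and FLNA), against 1.29% of all promoters and 1.08% of those of tested protein-coding genes. The list was chosen to hold SRF targets, so a higher share of boxes came with that choice. TAGLN, MYL9, TPM1 and ACTA2, the 4 calls that held, were not among the genes found with a box. A gene without a matched promoter could not be found. Nor could a box outside the 250 bases before to 50 after the listed start. FLNA, the actin cross-linker filamin A (GRCh38.p14, chrX:154374615-154374884, minus strand), is shown with its box in capitals.
FLNA: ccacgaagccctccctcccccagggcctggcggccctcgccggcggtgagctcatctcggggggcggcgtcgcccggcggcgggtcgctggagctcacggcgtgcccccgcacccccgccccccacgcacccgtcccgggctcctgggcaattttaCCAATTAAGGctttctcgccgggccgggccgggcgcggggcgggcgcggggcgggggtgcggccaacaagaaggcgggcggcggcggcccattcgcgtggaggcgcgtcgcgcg

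FLNA was at 3963 and 3508 CPM in palbociclib, 7801 and 8252 CPM in pimasertib and 4332 and 4331 CPM in DMSO. The difference of -1.10 ± 0.25 (edgeR adjusted p = 0.0217) was lost without any 1 of the 4 drug libraries (adjusted p = 0.0971 to 0.14). For ERK output genes promoters matched 11 of 20, under the 80% required here, so no share of words is given for them.

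Matrix genes mostly lay higher in pimasertib, with 11 of 34 called, 3 called higher in palbociclib and a median of -0.73. The 11 became 17 without palbociclib replicate 2, 5 without pimasertib replicate 1 and 4 without pimasertib replicate 2, and the 3 became 5 without palbociclib replicate 1 and 1 without pimasertib replicate 1. THBS1, the matrix protein thrombospondin 1, was at 1354 and 1397 CPM in palbociclib and 4551 and 4772 CPM in pimasertib (-1.76 ± 0.26). FBN1, the microfibril protein fibrillin 1, was at 241 and 279 CPM against 727 and 892 CPM (-1.64 ± 0.24). NID2, of basement membranes, differed by -2.51 ± 0.30 and TNC, tenascin C, by -1.79 ± 0.26. TGFBI was higher in palbociclib, at 60.1 and 61.5 CPM against 17.5 and 16.5 CPM (1.84 ± 0.24), and palbociclib raised it over DMSO (log2 fold change 1.13, edgeR adjusted p = 0.028). COL1A1 was called as well (-3.38 ± 0.79, edgeR adjusted p = 0.024), but its palbociclib libraries were at 5.13 and 48.6 CPM and the call was lost without either DMSO replicate (adjusted p = 0.324 and 0.329) or either pimasertib replicate (0.116 and 0.146). Integrins gave 3 calls higher in palbociclib and 2 higher in pimasertib of 16, with a median of -0.55. ITGA6, a laminin receptor subunit, was the call that held (2.89 ± 0.26). Without either pimasertib replicate there was 1 integrin call higher in palbociclib and 0 higher in pimasertib, and the 2 became 1 without either palbociclib replicate.

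The TGF-beta ligands TGFB2 and TGFB3 and the receptor TGFBR2 lay on opposite sides. TGFB2 (chromosome 1, 218519577 to 218617961, plus strand, GRCh37) was at 24.3 and 29.7 CPM in palbociclib, 271 and 258 CPM in pimasertib and 14.2 and 27.3 CPM in DMSO, a log2 fold change of -3.29 ± 0.31 (edgeR adjusted p = 0.000146). TGFB3 was at 5.79 and 15.6 CPM against 90.7 and 95.7 CPM (-3.11 ± 0.51, and -4.01 without palbociclib replicate 2). TGFBR2, the type II receptor, was at 649 and 820 CPM in palbociclib, 139 and 167 CPM in pimasertib and 382 and 564 CPM in DMSO (2.26 ± 0.28). LTBP2, a protein of the same family as the latent TGF-beta binding proteins, was higher in palbociclib by 2.13 ± 0.23. BAMBI, a decoy receptor, was higher in pimasertib (-2.77 ± 0.34, and -3.53 without palbociclib replicate 2). Over the list 4 of 24 were called higher in palbociclib and 6 higher in pimasertib, with a median of 0.01. Without pimasertib replicate 2 these were 2 and 3, and without either DMSO replicate 7 were higher in palbociclib.

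**Figure D5:**
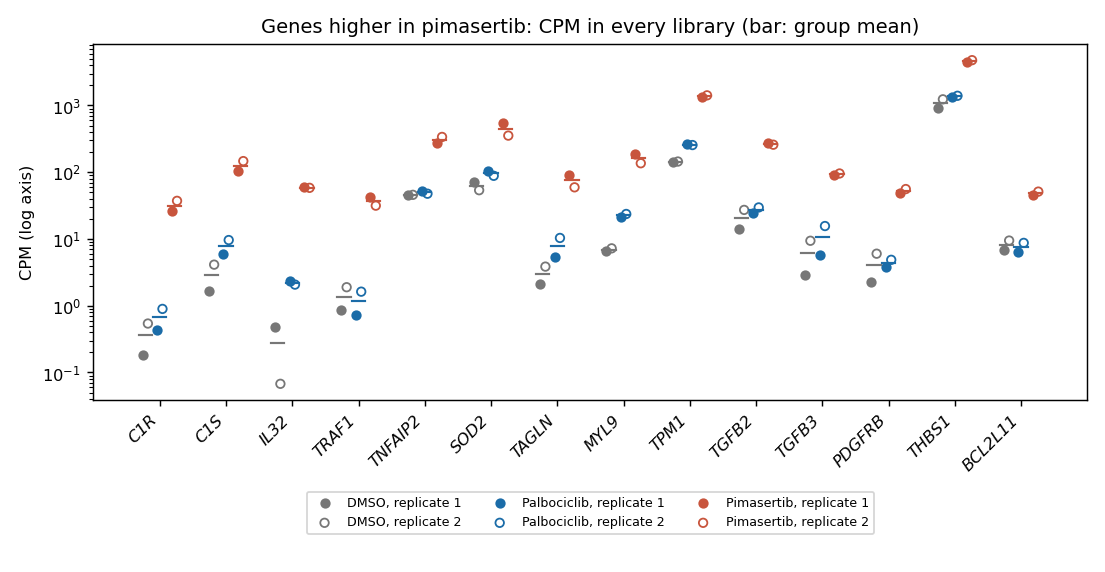
CPM on a log axis in every library for 14 genes higher in pimasertib, with filled circles for replicate 1, open circles for replicate 2 and bars at the group means. Both pimasertib libraries lie above the other 4 for each gene, and for MYL9 and TPM1 palbociclib lies between DMSO and pimasertib.

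Genes of the list of NF-kB feedback and NF-kB targets were called higher in pimasertib at 9 of 20, with 1 higher in palbociclib and a median of -0.80. The 9 became 5 without pimasertib replicate 2, and 5 held. TRAF1, an adaptor of TNF receptors, was at 0.733 and 1.62 CPM in palbociclib, 42 and 31.6 CPM in pimasertib and 0.851 and 1.89 CPM in DMSO (-4.92 ± 0.43, edgeR adjusted p = 9.64e-05, and -5.63 without palbociclib replicate 2). IL32, an inflammatory secreted protein, was at 2.35 and 2.07, 59.4 and 58.3, and 0.486 and 0.0676 CPM in the same order (-4.74 ± 0.34), and palbociclib raised it over DMSO too (log2 fold change 2.91, edgeR adjusted p = 0.0098). TNFAIP2 was at 51.8 and 47.7 CPM in palbociclib and 278 and 338 CPM in pimasertib (-2.63 ± 0.22). SOD2, the mitochondrial superoxide dismutase, was at 105 and 88.4 CPM against 540 and 354 CPM (-2.21 ± 0.28), and BCL3 differed by -1.44 ± 0.22. BCL2A1, a survival gene of the BCL2 family, was the 1 called higher in palbociclib, at 2.79 and 1.62 CPM against 0.346 and 0.129 CPM (3.14 ± 0.68, edgeR adjusted p = 0.0167). That call was lost without palbociclib replicate 1 (adjusted p = 0.0507) and without either pimasertib replicate (0.0647 and 0.149), and its log2 fold change was 4.0 without pimasertib replicate 1.

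Interferon-stimulated genes gave the largest number of calls of any list towards pimasertib, 15 of 34, with 1 towards palbociclib and a median of -1.06. Without either pimasertib replicate there were 6 and 0, and 4 of the 15 held. IFIT1, which binds foreign RNA caps, was at 3.74 and 5.6 CPM in palbociclib, 32.4 and 22.1 CPM in pimasertib and 1.76 and 2.16 CPM in DMSO (-2.54 ± 0.31, edgeR adjusted p = 0.000657). OAS2, a sensor of double-stranded RNA, was at 6.01 and 5.88, 31.9 and 22.1, and 2.98 and 3.72 CPM in the same order (-2.18 ± 0.28). MX1, an antiviral GTPase, differed by -2.16 ± 0.33. IFI27 was at 0.733 and 2.07 CPM in palbociclib and 16.1 and 12.3 CPM in pimasertib, a log2 fold change of -3.30 ± 0.48 that was -4.26 without palbociclib replicate 2. The pimasertib libraries were above both other groups at each of these 4 genes, and palbociclib lay above DMSO at IFIT1, OAS2 and IFI27, with no call there (edgeR adjusted p = 0.076, 0.16 and 0.13). Over the list, 20 genes were called higher in pimasertib than in DMSO and 3 higher in palbociclib than in DMSO. Those 3, chosen after their values were seen, were IFIT2, DDX58 and SAMD9L, and none was called between the drugs. IFIT2 was at 7.99 and 9.46 CPM in palbociclib, 14.6 and 12.5 CPM in pimasertib and 1.70 and 2.23 CPM in DMSO (log2 fold change of palbociclib over DMSO 2.15, edgeR adjusted p = 0.0039).

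Antigen presentation genes gave 5 calls towards pimasertib and 1 towards palbociclib of 22, with a median of -0.93. The 5 became 2 without palbociclib replicate 1, 10 without palbociclib replicate 2, 3 without pimasertib replicate 1 and 2 without pimasertib replicate 2, and the 1 became 0 without palbociclib replicate 2 or pimasertib replicate 1. NLRC5, an activator of MHC class I genes, was at 17.5 and 21.1 CPM in palbociclib and 45.1 and 60.1 CPM in pimasertib (-1.44 ± 0.22). PSMB9, a subunit of the immunoproteasome, was at 8.36 and 10.9 CPM against 27.4 and 26.1 CPM (-1.47 ± 0.24).

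Complement genes gave the lowest median, -2.03, with 4 of 11 called higher in pimasertib and 2 of them held. C1R, a protease that starts the classical pathway (chromosome 12, 7187513 to 7245203, minus strand, GRCh37), was at 0.44 and 0.896 CPM in palbociclib, 26.0 and 37.3 CPM in pimasertib and 0.182 and 0.541 CPM in DMSO. It was 47.4-fold higher in pimasertib by mean CPM (log2 fold change -5.51 ± 0.44, edgeR adjusted p = 6.53e-05, and -6.14 without palbociclib replicate 2). Its partner C1S was at 6.01 and 9.63 CPM against 105 and 147 CPM (-4.00 ± 0.38). The 4 calls became 2 without either pimasertib replicate.

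Among the genes furthest above palbociclib under the same count minimum, CHI3L1, a secreted chitinase-like glycoprotein, was at 0 and 1.4 CPM in palbociclib and 70.3 and 99.0 CPM in pimasertib. The difference of -6.77 ± 0.66 on the log2 scale was -5.91 without palbociclib replicate 1, and without replicate 2 no palbociclib count was left. WISP2, of the CCN family, had 3 counts over both palbociclib libraries and 518 over both pimasertib libraries, a ratio of 166 with an exact 95% interval of 56.4 to 806 for counting error only. EDIL3, an integrin ligand, was at 3.74 and 11.4 CPM against 213 and 180 CPM (-4.68 ± 0.54, and -5.71 without palbociclib replicate 2), and KIAA1199, which degrades hyaluronan, at 6.60 and 9.80 against 140 and 216 CPM (-4.43 ± 0.37). Each was low in both palbociclib libraries and in DMSO. The rest of the leading 15 were MATN2 at -4.96, SLC12A8 at -4.41 (-5.52 without palbociclib replicate 2), OLFML2A at -4.18 (-4.83 without it), the TNF receptor TNFRSF9 at -3.89, ATOH8 at -3.83, MEGF6 at -3.62 and RP11-553A10.1 at -4.48 (-5.15 without palbociclib replicate 2 and -3.84 without pimasertib replicate 1). Among calls that held, the genes reported here with the widest differences of level were THBS1, TPM1, the adhesion protein TENM2 at 222 and 264 against 1162 and 1299 CPM, HEG1 at 452 and 415 against 1257 and 1548 CPM, and the glucose transporter SLC2A1 at 169 and 226 against 813 and 1085 CPM.

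BCL2 family genes lay on both sides. BCL2L11, which encodes the death-promoting protein BIM (chromosome 2, 111876955 to 111926024, plus strand, GRCh37), was at 6.38 and 8.74 CPM in palbociclib, 44.8 and 51.2 CPM in pimasertib and 6.87 and 9.47 CPM in DMSO, a log2 fold change of -2.66 ± 0.26 (edgeR adjusted p = 0.000189). The palbociclib and DMSO libraries overlapped there. BMF, another BH3-only gene, was at 2.93 and 10.6 CPM against 82.2 and 80.5 CPM, and its call (-3.56 ± 0.64, edgeR adjusted p = 0.00643) was lost without pimasertib replicate 1 (0.0603) and replicate 2 (0.0692). BCL2L1, which encodes the survival protein BCL-XL, was at 174 and 135 CPM in palbociclib and 43.0 and 37.8 CPM in pimasertib (1.93 ± 0.27). BNIP3, a BH3 protein of mitochondria induced by hypoxia, was also higher in palbociclib, at 61.7 and 59.0 CPM against 32.2 and 26.8 CPM, a call lost without pimasertib replicate 1 (1.03 ± 0.20, edgeR adjusted p = 0.0102, and 0.0504 without it) and without replicate 2 (0.115). Of 17 tested members 3 were called each way with a median of 0.08, with 1 each way without either pimasertib replicate and 5 higher in palbociclib without either DMSO replicate. Of 25 p53 targets 3 were called higher in pimasertib and 0 higher in palbociclib (median -0.32), with 5 without palbociclib replicate 2 and 1 without either pimasertib replicate. TP53I3, a quinone reductase, was the call that held (-1.17 ± 0.19).

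NRF2 targets, genes of antioxidant defence, gave 8 calls of 28 towards pimasertib and 0 towards palbociclib, with a median of -0.24, and 5 without palbociclib replicate 2 or either pimasertib replicate. HMOX1, heme oxygenase, was at 27.4 and 28.5 CPM in palbociclib, 109 and 106 CPM in pimasertib and 22.4 and 18.4 CPM in DMSO (-1.94 ± 0.20, edgeR adjusted p = 0.000257). ABCC3, a conjugate exporter, differed by -2.75 ± 0.31 and AKR1B1, aldose reductase, by -2.10 ± 0.24. Genes that protect from ferroptosis, death by lipid peroxidation, gave 6 calls of 27 towards pimasertib and 0 towards palbociclib, with a median of -0.21. Those 6 became 3 without palbociclib replicate 1, 2 without pimasertib replicate 1 and 1 without pimasertib replicate 2. GPX4, which reduces lipid hydroperoxides, was at 63.7 and 84.7 CPM in palbociclib, 170 and 165 CPM in pimasertib and 33.0 and 53.8 CPM in DMSO. The difference of -1.17 ± 0.26 (edgeR adjusted p = 0.0191) was lost without palbociclib replicate 1 (0.102) and without either pimasertib replicate (0.11 and 0.123).

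MBOAT1 and EMP2, also of that list, were lowered by both drugs. MBOAT1, a phospholipid acyltransferase, was at 2.27 and 3.42 CPM in palbociclib, 6.80 and 7.89 CPM in pimasertib and 18.5 and 21.8 CPM in DMSO. Its difference between the drugs of -1.35 ± 0.30 (edgeR adjusted p = 0.0179) was lost without palbociclib replicate 1 (0.104) and without either pimasertib replicate (0.0712 and 0.143). EMP2, a membrane protein, was at 8.87 and 8.23, 16.8 and 19.3, and 55.2 and 62.8 CPM in the same order (-1.08 ± 0.21, edgeR adjusted p = 0.0101), and was not called without pimasertib replicate 2 (0.0921). SLC7A11, the cystine transporter, was at 75.6 and 63.8 CPM in palbociclib and 151 and 126 CPM in pimasertib (-0.99 ± 0.21, edgeR adjusted p = 0.0153), a call lost without palbociclib replicate 2 (0.0689) and either pimasertib replicate (0.114 and 0.0597). ACSL4, which activates polyunsaturated fatty acids, was not called (0.80 ± 0.27, edgeR adjusted p = 0.0948), nor were AIFM2 (-0.42 ± 0.20), MBOAT2 (-0.28 ± 0.21) and the transferrin receptor TFRC (-0.27 ± 0.27). Of 20 ferroptosis-promoting genes 1 was called each way. There were 0 calls without palbociclib replicate 1 or either pimasertib replicate, 2 and 3 without either DMSO replicate, and 2 higher in pimasertib without palbociclib replicate 2.

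Among metabolic and stress lists, ribosome biogenesis stood out for its small and even shift. All 30 tested genes had a positive log2 fold change, with a median of 0.52. For 25 both palbociclib libraries were above both pimasertib libraries, and for 0 they were below. Over all tested genes the libraries of the drugs did not overlap, counting both directions, at 56.5%. Against DMSO pimasertib lowered 17 of the 30 and palbociclib 0, with median log2 fold changes of -0.78 and -0.35. Between the drugs 3 of the 30 were called. They were ODC1, the enzyme that starts polyamine synthesis, at 1.59 ± 0.32, LYAR at 1.06 ± 0.23 and SRM, spermidine synthase, at 0.75 ± 0.21. There were 0 calls without palbociclib replicate 1 or without either pimasertib replicate, and 5 without DMSO replicate 2. Amino acid stress genes of the ATF4 list went both ways, 5 of 34 towards palbociclib and 4 towards pimasertib (median 0.47). The 5 became 11 without either DMSO replicate, 9 without palbociclib replicate 2, 2 without palbociclib replicate 1 or pimasertib replicate 1 and 1 without pimasertib replicate 2, and the 4 became 1 without either pimasertib replicate and 2 without palbociclib replicate 1. SLC7A5, the leucine transporter, was at 336 and 315 CPM in palbociclib and 92.0 and 109 CPM in pimasertib (1.70 ± 0.23). NUPR1, a stress-response protein, was at 0.22 and 0.168 CPM against 7.61 and 6.92 CPM (-5.19 ± 0.56).

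Lysosome genes had a median of -0.82, but their calls depended on the libraries used. Of 39 tested genes 4 were called higher in pimasertib and 0 higher in palbociclib. The 4 became 19 without palbociclib replicate 2, 12 and 14 without DMSO replicates 1 and 2, 1 without pimasertib replicate 1 and 0 without palbociclib replicate 1 or pimasertib replicate 2. The 13 mitochondrially encoded genes gave 0 calls by edgeR, DESeq2 and limma-voom and 0 at an unadjusted p under 0.05, with a median of -0.06, although their share of counts was highest in pimasertib replicate 2.

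The lists that follow here gave at most 2 calls in either direction, and fits without 1 library moved several of those counts by more than 1.5 times. Over all tested genes 4.31% were called higher in palbociclib and 5.07% higher in pimasertib. The lists were not tested against these shares. DNA repair genes were lowered against DMSO by each drug at 18 of 24, with 1 called between the drugs, BRIP1. Of 16 RB and E2F family genes palbociclib lowered 4 and pimasertib 10, and E2F1 was the 1 called between them. Cholesterol synthesis genes, 2 of 23 called higher in pimasertib (0 without palbociclib replicate 1 or either pimasertib replicate), had a median of -0.53. Genes of the unfolded protein response gave 2 of 24 in that direction (0 without palbociclib replicate 1 or either pimasertib replicate, and 1 without palbociclib replicate 2). Fatty acid and phospholipid genes gave 2 of 34 in that direction (6 without either DMSO replicate or palbociclib replicate 2, and 1 without any of the other 3 libraries). Glycolysis and hypoxia genes gave 2 of 25 higher in palbociclib (0 without either pimasertib replicate, and 1 without palbociclib replicate 1) and 1 higher in pimasertib, the glucose transporter SLC2A1 (-2.26 ± 0.30). Heat shock genes gave 1 each way of 14, and neither held. The 10 genes of the MAX network gave 0 calls by edgeR, DESeq2 and limma-voom, and 2 higher in palbociclib and 1 in pimasertib at an unadjusted p under 0.05.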

How the data were processed

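RNA was sequenced from 6 libraries of HT-1080 cells, 2 each of DMSO, palbociclib and pimasertib. Per the submitters' processing notes, STAR 2.5, HTSeq 0.6.1, CASAVA and DESeq2 were used with GRCh37 (hg19), and no source used here states whether counting used strand. The authors deposited 1 table per drug, with raw read counts per gene for that drug and DMSO. The deposited FPKM values, fold changes and p-values were not used. The tables held 23914 and 24931 genes and were joined on the gene identifier. All 22559 shared genes had identical DMSO counts, and the 1355 and 2372 genes in 1 table only had 0 DMSO counts, so their missing counts were set to 0.

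The test was that of edgeR 4.0.16 (R 4.3.3) on the deposited counts: filterByExpr (minimum count 10, minimum total 15), TMM scaling, glmQLFit (robust) with 3 groups over 6 libraries, and a two-sided glmQLFTest of palbociclib minus pimasertib with Benjamini-Hochberg adjustment over 14839 genes. The SE is the absolute log2 fold change over the square root of F, and intervals are 95%. Alternatives were RLE scaling, DESeq2 1.42.0, limma-voom 3.58.1, no filter, a minimum count of 50, the 4 drug libraries alone, genes in both tables, a replicate block, and each library left out. The test was checked on simulated data. Intervals of count ratios and floors of 3 counts cover counting error only.

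Members, lists and the naming rule were all chosen with earlier results of these data known. Named were held calls: the 15 protein-coding genes each way with the largest log2 fold change, libraries that did not overlap and a mean of 100 or more normalized counts, the 6 with the largest difference of mean CPM, the 4 non-coding ones, those at 0 counts in 1 drug, up to 4 per list and direction (or 2 calls where none held), and a fixed set of cell cycle, ERK and ferroptosis genes. Genes named beyond it were chosen after their values were seen. A few named genes are not reported here.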

Additional observations from a re-analysis of the deposited data

How the results depend on the processing

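The 1393 calls became 2256 with no filter on low counts, with 1322 higher in pimasertib. With the replicate number as a block there were 4702 calls, 2321 higher in palbociclib and 2381 in pimasertib, and 1392 of the 1393 were among them in the same direction. Under the block 23 of 30 ribosome biogenesis genes were called higher in palbociclib, 14 of 23 cholesterol synthesis genes higher in pimasertib, and 3 and 5 of 42 DNA replication genes higher in palbociclib and pimasertib. The replicates share a number only and just 2 pairs enter the comparison, so the block was not taken as a pairing, although deviations of same-numbered replicates correlated at 0.345 between the drugs and at 0.351 and 0.397 between each drug and DMSO. DESeq2 called 1773 genes, limma-voom 1376, RLE scaling 1385 and the fit of the 4 drug libraries alone 1957. Leaving out 1 library gave 458 to 1988 calls, 227 to 877 higher in palbociclib and 231 to 1173 higher in pimasertib, with the lowest counts without pimasertib replicate 2. Named genes changed sign in 5 fits, none of them a call. Without 1 library the log2 fold change ran from -0.075 (palbociclib replicate 1 left out; -0.052 without pimasertib replicate 2) to 0.59 for CDK6, from -0.072 (pimasertib replicate 2) to 0.52 for RB1, from -0.098 to 0.092 (pimasertib replicate 1) for CCNE2 and from -0.57 to 0.12 (pimasertib replicate 1) for NRAS. The cause was not tested. With 3 residual degrees of freedom and a median SE of 0.27 on the log2 scale, 6443 genes (43.4%) had an interval within 1 log2 unit, and the others were not bounded to within 2-fold.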

Other observations

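Axon guidance and ephrin genes, which steer growing nerve and vessel cells and were not described above, leaned towards pimasertib. Of 35 tested genes 9 were called higher in pimasertib and 3 higher in palbociclib, and the median difference was -0.51 on the log2 scale. The 9 became 5 without palbociclib replicate 1 and 2 without pimasertib replicate 2, and the 3 became 0 without pimasertib replicate 1 and 1 without replicate 2. NRP2, a coreceptor of semaphorins and VEGF-C, was at 104 and 160 CPM in palbociclib, 544 and 694 CPM in pimasertib and 134 and 225 CPM in DMSO (-2.23 ± 0.32, edgeR adjusted p = 0.00175). EPHB3, an ephrin receptor, was at 2.86 and 4.42 CPM against 13.8 and 17.7 CPM (-2.10 ± 0.31). In both genes the pimasertib libraries were above the other 4. Of 25 FOXO, TXNIP and MXD genes palbociclib raised 8 and pimasertib 17 over DMSO, and 1 was called higher in palbociclib and 5 in pimasertib. Those were 0 and 3, 0 and 1 and 0 and 3 without palbociclib replicate 1, pimasertib replicate 1 and pimasertib replicate 2. Of this list PIK3R3, a regulatory subunit of PI3-kinase, was higher in both drugs than in DMSO and differed between them, at 46.9 and 45.6 CPM in palbociclib, 138 and 117 CPM in pimasertib and 12.7 and 12.7 CPM in DMSO (-1.46 ± 0.20, edgeR adjusted p = 0.00112). TXNIP, a glucose-responsive gene, was at 14.7 and 29.8, 40.9 and 41.5, and 2.61 and 4.87 CPM in the same order, with no call between the drugs (-0.88 ± 0.34, edgeR adjusted p = 0.138).

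Some transcripts had counts in only 1 of the drugs. CYB5R2, a reductase, and the non-coding CTC-529P8.1 had 0 counts in both pimasertib libraries, and were at least 44.8-fold and 45.8-fold higher in palbociclib, taking 3 counts over the group as the floor. C7orf69, CSDC2 and SLC38A3 had 0 counts in both palbociclib libraries, and were at least 81.0-fold, 67.8-fold and 36.0-fold higher in pimasertib. Counts of a gene absent from a drug's deposited table were set to 0, and such zeros are not told apart here from deposited ones. No source used here states whether counting used strand, so reads of a non-coding gene and of an overlapping partner cannot be told apart. Among non-coding genes RP1-140K8.5 was at 3.15 and 2.63 CPM in palbociclib and 63.3 and 58.4 CPM in pimasertib (-4.4 ± 0.25, edgeR adjusted p = 1.42e-05). STARD4-AS1, RP11-224O19.2 and AC144831.1 were also higher in pimasertib (-3.45, -3.57 and -3.38, with RP11-224O19.2 at -4.36 without palbociclib replicate 2), and RP5-1028K7.2 was higher in palbociclib (5.43 ± 0.55). RP11-1024P17.1 was also higher in palbociclib (4.82, which was 4.16 without palbociclib replicate 2, 4.18 without pimasertib replicate 1 and 5.87 without pimasertib replicate 2). RP11-221N13.3 had 3 counts over both pimasertib libraries, a ratio of 58.7 in favour of palbociclib with an exact 95% interval of 19.8 to 288.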
